A study of Mus musculus with 6 samples.

Results

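Histone chaperones are proteins that escort histones from their synthesis to DNA and hand them over without becoming part of the nucleosome. The 10 genes described here, Asf1a, Asf1b, Chaf1a, Chaf1b, Hira, Daxx, Atrx, Nasp, Nap1l1 and Ssrp1, were taken by symbol from a table of 33924 genes of mouse RPE/choroid, and all 10 were in it. RPE/choroid is the retinal pigment epithelium together with the vascular choroid beneath it. Total RNA was read from 3 young and 3 aged C57BL/6J mice, 1 library per mouse from both of its eyes, after ribosomal RNA had been removed and with no selection for poly(A) tails. The mice carried no engineered allele and received no agent. Each is labelled male, with an age of 1 to 2 months for the young group and, for the aged group, of 20 to 24 months in the titles and 22 to 24 months in the time label. The study's text gives an older young group and both sexes, so age and sex are uncertain.

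Histone chaperones follow separate routes. In the replication-coupled route, chromatin assembly factor 1 (CAF-1) places new H3-H4 behind the replication fork, with Chaf1a and Chaf1b encoding its large and middle subunits. Asf1b, the ASF1 paralog typical of dividing cells, hands H3-H4 to CAF-1. NASP keeps the pool of soluble H3-H4 from being degraded. Nasp is counted here with this route, an assignment made for the grouping that was not tested. In the replication-independent route, the HIRA complex places the H3 variant encoded by H3f3a and H3f3b at active genes and gaps in chromatin, and receives it from ASF1A. DAXX binds the same variant and with the remodeller ATRX places it in heterochromatin and at telomeres. NAP1L1, which carries H2A-H2B, and SSRP1, a subunit of FACT (facilitates chromatin transcription), serve both routes. Most cells of adult RPE and choroid do not divide. In these samples of mixed cells, a lower level of RNA per cell and fewer cells of the type that makes it cannot be told apart.

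Of these genes, Nasp alone passed the test between ages, and it was lower in aged mice. Its mean fell from 733 normalized counts in young mice to 504 in aged mice, a difference of -31.3%. The log2 fold change (log2FC, aged over young) was -0.54 (SE 0.16, adjusted p = 0.00558, DESeq2 Wald test of the authors' deposited table, n = 3 per group). The remaining members of the replication-coupled route, Chaf1a, Chaf1b and Asf1b, had log2FCs between -0.11 and -0.06, each smaller than its SE. None of the 4 members of the replication-independent route passed the test, which 21.2% of all genes tested did. Ssrp1 had a log2FC of 0.33 (SE 0.14) and an adjusted p of 0.0656, the next lowest after Nasp. After centring on abundant genes that place went to Asf1a, at an adjusted p of 0.114 against 0.155 for Ssrp1.

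All values come from the table that the authors deposited. It gives for each gene a mean over the 6 libraries in normalized counts (baseMean), a log2FC with its SE, a p-value and a p-value adjusted over the 18636 genes tested. No value per mouse was analysed here, so the means of young and aged mice were derived from baseMean and fold change. Replicate error enters through the SE alone, and an overlap between the groups could not be examined. Depth per library is likewise unknown here. Fold changes are given as aged over young. Genes with an adjusted p under 0.05 are called different, and intervals are 95% intervals computed from the SE.

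By this threshold 21.2% of all genes tested differed, 9.92% being lower and 11.3% higher in aged mice. Among the 10 histone chaperones 1 (10%) was lower and 0 were higher. At an unadjusted p under 0.05 they numbered 2, Nasp and Ssrp1, against 32.6% of all genes tested. Their median log2FC was -0.07, with 7 values below 0 and 3 above. The median of all genes tested was -0.01, with quartiles of -0.33 and 0.23.

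The promoters of the 4 replication-coupled genes are shown here because this is the class in which a member changed. Each window runs from 250 bases before to 50 bases after the RefSeq transcription start on GRCm38.p6, read on the strand of the gene. Capitals mark E2F-type words, bound by factors that turn on genes of the S phase, and the CCAAT word, bound by NF-Y, each in either orientation. The E2F-type words searched were TTCCCGC and TTCGCGC and TTGCCGC and TTGGCGC. The windows are chr4:116627902-116628201 (minus strand) for Nasp, chr17:56040166-56040465 (plus strand) for Chaf1a, chr16:93883651-93883950 (plus strand) for Chaf1b and chr8:83955444-83955743 (plus strand) for Asf1b.
Nasp: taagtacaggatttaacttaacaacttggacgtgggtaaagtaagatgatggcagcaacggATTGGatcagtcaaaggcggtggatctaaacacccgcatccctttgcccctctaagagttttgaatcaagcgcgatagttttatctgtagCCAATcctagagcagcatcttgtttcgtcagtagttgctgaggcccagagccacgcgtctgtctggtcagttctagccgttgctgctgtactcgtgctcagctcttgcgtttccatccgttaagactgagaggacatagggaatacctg
Chaf1a: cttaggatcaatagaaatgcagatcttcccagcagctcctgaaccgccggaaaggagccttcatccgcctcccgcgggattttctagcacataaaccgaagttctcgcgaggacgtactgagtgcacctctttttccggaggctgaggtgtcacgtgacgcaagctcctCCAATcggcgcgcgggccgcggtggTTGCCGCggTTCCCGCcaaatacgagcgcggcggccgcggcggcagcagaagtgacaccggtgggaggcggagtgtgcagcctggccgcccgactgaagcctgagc
Chaf1b: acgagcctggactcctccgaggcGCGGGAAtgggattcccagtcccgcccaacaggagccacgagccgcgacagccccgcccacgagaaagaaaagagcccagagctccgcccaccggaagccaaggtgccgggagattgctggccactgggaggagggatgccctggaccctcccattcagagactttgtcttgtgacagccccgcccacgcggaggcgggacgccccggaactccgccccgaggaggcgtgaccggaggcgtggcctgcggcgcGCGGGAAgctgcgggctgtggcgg
Asf1b: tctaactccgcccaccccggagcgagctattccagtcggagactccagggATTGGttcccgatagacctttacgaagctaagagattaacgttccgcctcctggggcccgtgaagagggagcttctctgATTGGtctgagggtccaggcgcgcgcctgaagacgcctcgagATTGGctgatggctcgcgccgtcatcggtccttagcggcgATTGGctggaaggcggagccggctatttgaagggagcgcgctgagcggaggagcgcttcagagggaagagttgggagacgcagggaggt

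The 4 promoters differed in these words. The Nasp window, at 48.3% G and C, held CCAAT at -189 and -99 from the start and 0 E2F-type words. Chaf1a held CCAAT at -81 and E2F-type words at -56 and -47. Chaf1b, at 70.3% G and C, held E2F-type words at -227 and 26 and 0 CCAAT words. In Asf1b CCAAT occurred 4 times, at -200, -121, -79 and -39, with 0 E2F-type words. No word overlapped a word of the other kind in these windows. RefSeq gave 13 windows for the 10 genes. An E2F-type word was found in a window of 5 genes (Chaf1a, Chaf1b, Atrx, Nap1l1 and Ssrp1) and CCAAT in a window of 7. Of all 32851 mouse windows of this length, 9.57% held an E2F-type word and 37.4% held CCAAT. Those shares are per window, whereas the counts of members are per gene, and some genes have several windows. These matches describe the letters only.

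The replication-coupled class was, apart from Nasp, present at a low level. Per kb of the longest coding transcript, Asf1b stood at 14.1 normalized counts, Chaf1a at 19.2 and Chaf1b at 27.2, whereas the median over 13980 genes with a coding length was 150. Nasp stood at 245 per kb. In the replication-independent class the levels per kb were 142 for Hira, 191 for Daxx, 272 for Asf1a and 585 for Atrx. Nap1l1 and Ssrp1, of both routes, stood at 436 and 641 per kb. Nasp, which lay between Daxx and Asf1a, was the only replication-coupled gene within the range of the replication-independent class, and Atrx lay above Nap1l1. The median levels per kb were 23.2 for the replication-coupled, 231 for the replication-independent and 539 for the remaining class.

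**Figure D1:**
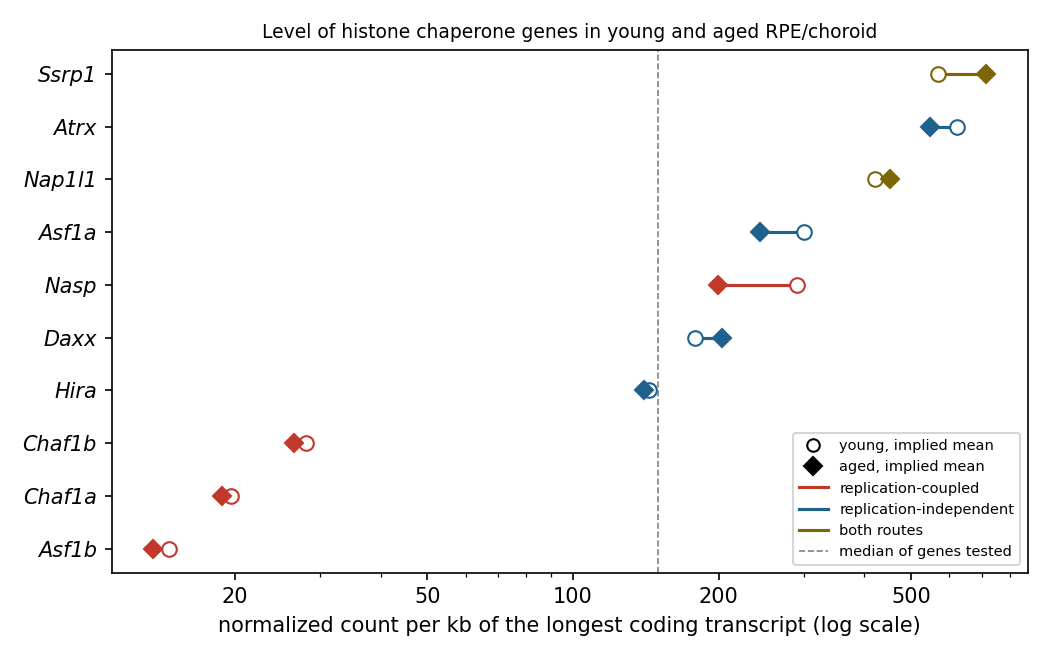
Implied mean levels of the 10 histone chaperone genes in young mice (open circles) and aged mice (diamonds), in normalized counts per kb of the longest coding transcript on a log axis; colours mark the class and the dashed line the median of genes tested, 150. Asf1b, Chaf1a and Chaf1b have means over all libraries of 14.1 to 27.2 per kb, and the other 7 genes of 142 or more.

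The ASF1 paralogs showed the contrast in level within 1 family. Asf1a exceeded Asf1b 20.6-fold per kb in young mice and 18.0-fold in aged mice. Between the CAF-1 subunits, the ratio of Chaf1a to Chaf1b was 0.70 in young and 0.71 in aged mice. Rbbp4, which encodes the small subunit but also serves other chromatin complexes, exceeded Chaf1a 33.2-fold and Chaf1b 23.4-fold per kb over all libraries. The FACT subunits were nearer to each other, with an Ssrp1 to Supt16h ratio of 1.69. Atrx exceeded its partner Daxx 3.48-fold in young and 2.70-fold in aged mice, a change in ratio that was not tested.

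Chaf1a, on chromosome 17 at 56040439 to 56072289 (GRCm38, plus strand), had implied means of 108 normalized counts in young and 104 in aged mice. Its log2FC was -0.06 (SE 0.22, adjusted p = 0.885, DESeq2), with an interval from -0.49 to 0.37. Chaf1b, on chromosome 16 at 93883901 to 93906115, had 53.8 and 50.8 normalized counts and a log2FC of -0.08 (SE 0.28, adjusted p = 0.881), with an interval from -0.63 to 0.47. No difference between ages was detected for either CAF-1 subunit. Asf1b, on chromosome 8 at 83955507 to 83970197, had 26.1 and 24.2 normalized counts. Its log2FC was -0.11 (SE 0.37, adjusted p = 0.879), with an interval from -0.83 to 0.62. At these SEs a change would have had to reach 0.56 for Chaf1a, 0.72 for Chaf1b and 0.94 for Asf1b on the log2 scale to pass the test, so a change of the size seen in Nasp could not have been called in them.

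Genes as scarce as Asf1b and Chaf1b tended to be lower in aged mice. Among the 926 genes tested within 1.25-fold of the baseMean of Asf1b, the median log2FC was -0.33, and among the 963 around Chaf1b it was -0.23. The values of these members, -0.11 and -0.08, were nearer to 0 than those medians. Around Chaf1a the median was -0.09, close to its own value of -0.06.

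Nasp, on chromosome 4 at 116601052 to 116627941 (minus strand), is set here beside genes of like abundance. The 1842 genes tested within 1.25-fold of its baseMean had a median log2FC of 0.07, and 20.0% of them differed in either direction. The interval of Nasp ran from -0.85 to -0.23. Its SE of 0.16 allowed a change of 0.41 or more to be called. Of the 31-base words in its exons, 93.4% occur in the transcripts of no other gene.

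Asf1a, on chromosome 10 at 53596757 to 53609225, had the lowest log2FC of the replication-independent class. Its implied means were 660 normalized counts in young and 537 in aged mice, and the fold change of -0.30 (SE 0.17, adjusted p = 0.211, DESeq2) did not pass the test, its interval running from -0.63 to 0.04. Atrx, on chromosome X at 105797615 to 105929403 (minus strand), had 6387 normalized counts in young and 5632 in aged mice and a log2FC of -0.18 (SE 0.13, adjusted p = 0.354). Both values lay below 0, and neither passed the test. Hira, on chromosome 16 at 18877037 to 18970309, stood at 607 and 592 normalized counts, with a log2FC of -0.04 (SE 0.14, adjusted p = 0.893) and an interval from -0.30 to 0.23. Daxx, on chromosome 17 at 33909414 to 33915590, had a log2FC of 0.19 (SE 0.16, adjusted p = 0.429) at 477 and 544 normalized counts. It was the only member of this class with a value above 0.

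Neither gene of both routes passed the test, and genes of like abundance had a median log2FC of 0.12 around each. Ssrp1, on chromosome 2 at 85037234 to 85047109, had implied means of 1554 normalized counts in young and 1957 in aged mice, with an interval of its log2FC from 0.06 to 0.60. Its unadjusted p was 0.0153. Nap1l1, on chromosome 10 at 111473223 to 111498150, had 1655 and 1777 normalized counts and a log2FC of 0.10 (SE 0.12, adjusted p = 0.588, DESeq2).

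**Figure D2:**
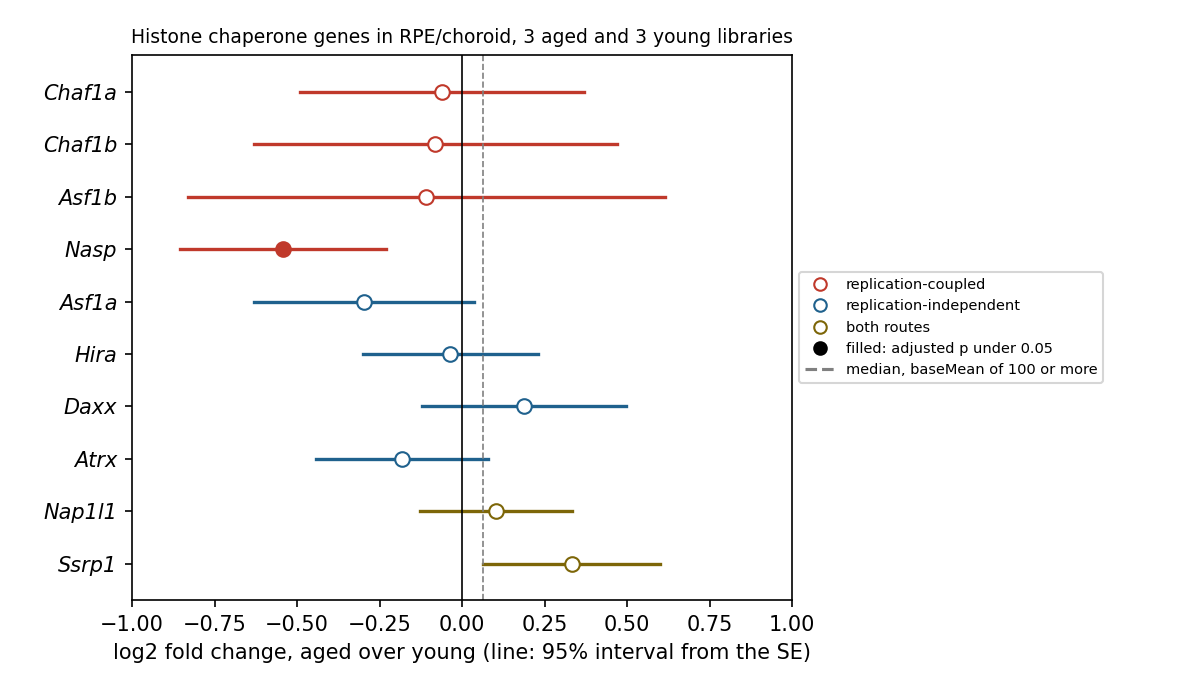
Log2FC (aged over young, n = 3 per group) of the 10 histone chaperone genes, with lines for the 95% interval from the SE and colours for the class; filled points passed an adjusted p of 0.05 and the dashed line is the median of 12863 genes with a baseMean of 100 or more, 0.06. Only Nasp, at -0.54, is filled, and the intervals are widest for Chaf1b and Asf1b.

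The replication-coupled and replication-independent classes were close in their median change, -0.09 and -0.11 on the log2 scale, a difference of 0.01. Means weighted by the inverse of the squared SE were further apart, at -0.31 and -0.08, because Nasp had the smallest SE in its class and took the largest share of the weight. The difference between classes was not tested, since each held 4 genes measured in the same 6 libraries. Precision was unequal as well, with a median SE of 0.25 in the replication-coupled and 0.15 in the replication-independent class. Of the 10 intervals, 5 lay wholly between -0.5 and 0.5, 4 reached -0.5 or lower and 2 reached 0.5 or higher.

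**Figure D3:**
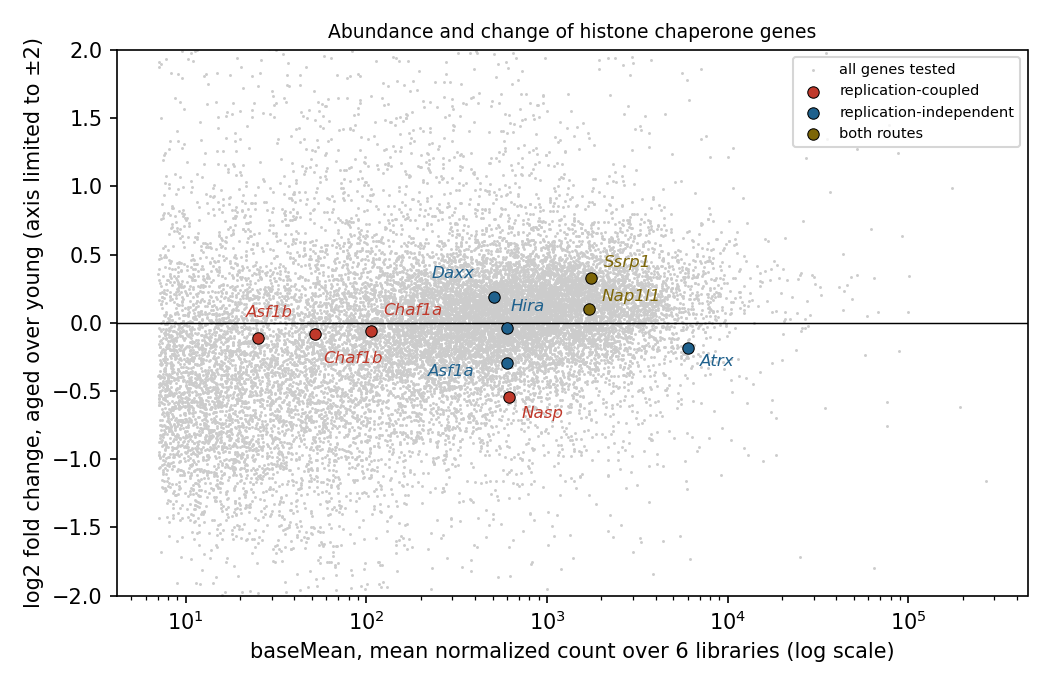
Log2FC (aged over young, axis limited to values within 2 of 0) against baseMean in normalized counts on a log axis, for all 18636 genes tested in grey and the 10 histone chaperone genes in the colours of their class. Asf1b, Chaf1b and Chaf1a lie at the low end of abundance among the members and near 0, and Nasp lies to their right at -0.54.

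Some members share sequence with other genes, and whether the counting used strand is not given in the sources used here. For Chaf1a 98.3% of 31-base words are its own when read on 1 strand, but 49.0% when either strand is allowed, because its exons overlap those of the antisense gene Ubxn6 (baseMean 1349, log2FC 0.11, adjusted p = 0.563, DESeq2). For Asf1a the shares are 100% and 55.1%, the overlapping antisense gene being Mcm9, whose log2FC of -0.28 (SE 0.19) was close to that of Asf1a. For Hira 56.9% of words are its own on either count. No other gene shares more of them than the overlapping same-strand gene Gm28539, which was not found under its symbol among the genes listed. For Nap1l1, 75.4% of words on its strand are its own, and no other gene shares more of its words than the processed pseudogene Gm4204. Gm4204 was listed with a log2FC of 0.41 (SE 0.15, adjusted p = 0.0366), and the sum of both gave a log2 ratio of 0.19. The levels of Chaf1a, Asf1a, Hira and Nap1l1 are therefore uncertain.

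A wider list of 40 other histone chaperones and partners placed these values in context. Of 37 that were tested, 4 were lower and 3 higher in aged mice, a share of 18.9% beside 21.2% of all genes tested, and their median log2FC was 0.10. Lower were Mms22l, Ubn2, Hjurp and Nap1l5, and higher were Supt6h, Ncl and Dnajc9. With fold changes centred on the median of abundant genes, the 3 that were higher no longer passed the test, whereas 4 were lower as before. That centring took the higher genes among all tested from 2100 to 1655 and the lower from 1849 to 2289. At an adjusted p under 0.10, 4 partners were lower and 9 higher, beside 2485 lower and 2616 higher among all 18636 genes.

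Among the partners of CAF-1 and ASF1 and of the fork, 1 of 7 differed (14.3%, beside 21.2% of all genes tested). Mms22l, whose product acts with TONSL on replicated chromatin, had a log2FC of -0.75 (SE 0.25, adjusted p = 0.0203, DESeq2), from 125 to 74.5 normalized counts. Rbbp4 stood at -0.05 (SE 0.12, adjusted p = 0.809). Mcm2, a subunit of the replicative helicase that binds H3-H4, stood at -0.17 (SE 0.16, adjusted p = 0.477).

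Of the 3 partners of Hira in its complex, Ubn2 alone differed (33.3%, beside 21.2% of all genes tested). Ubn2, which encodes 1 of the alternative ubinuclein subunits, fell from 2847 to 1790 normalized counts, with a log2FC of -0.67 (SE 0.20, adjusted p = 0.00637, DESeq2). Its SE was 1.47 times the median of genes of like abundance. The paralog Ubn1 had -0.12 (SE 0.11, adjusted p = 0.493) and Cabin1, a further subunit, 0.13 (SE 0.15, adjusted p = 0.609). Per kb, Ubn1 exceeded Ubn2 1.43-fold in young and 2.09-fold in aged mice, a change in ratio that was not tested.

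Of 3 further genes that act on chromatin during transcription, 1 differed, beside 21.2% of all genes tested. All 3 had values above 0, as did the medians of genes of like abundance, 0.12 for Supt16h and 0.13 for Supt6h. FACT is made of SSRP1 and SPT16, and Supt16h had a log2FC of 0.28 (SE 0.11, adjusted p = 0.0612, DESeq2), close to the 0.33 of Ssrp1. Neither subunit passed the threshold, and after centring on abundant genes the adjusted p was 0.171 for Supt16h and 0.155 for Ssrp1. Supt6h, which encodes the elongation factor and H3-H4 chaperone SPT6, differed with 0.36 (SE 0.14, adjusted p = 0.0491), and lost this call when no filter on low genes was used.

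The NAP family held 1 gene that differed among 7 tested beside Nap1l1, 14.3% against the 21.2% of all genes. Nap1l5, an imprinted gene without introns, had a log2FC of -0.40 (SE 0.14, adjusted p = 0.0271, DESeq2). Nap1l4, the widely expressed paralog, stood at 0.11 (SE 0.12, adjusted p = 0.563), near the 0.10 of Nap1l1. Set stood at 0.23 (SE 0.12, adjusted p = 0.143). Of the nucleolar chaperones, Ncl (nucleolin) was higher, at 0.31 (SE 0.11, adjusted p = 0.0328), and Npm1 (nucleophosmin) stood at 0.20 (SE 0.13, adjusted p = 0.279). Dnajc9, a heat shock co-chaperone that binds H3-H4, was higher at 0.49 (SE 0.17, adjusted p = 0.0206), rising from 576 to 808 normalized counts.

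Hjurp, which places the centromeric H3 variant CENP-A, was lower, with a log2FC of -0.54 (SE 0.15, adjusted p = 0.00339, DESeq2). Its implied means were 1878 normalized counts in young and 1289 in aged mice. Cenpa itself stood at 0.09 (SE 0.30, adjusted p = 0.870). Of the 4 H2A.Z exchange genes tested, 0 differed in the DESeq2 table and 1 had an unadjusted p under 0.05, beside 21.2% and 32.6% of all genes tested.

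**Figure D4:**
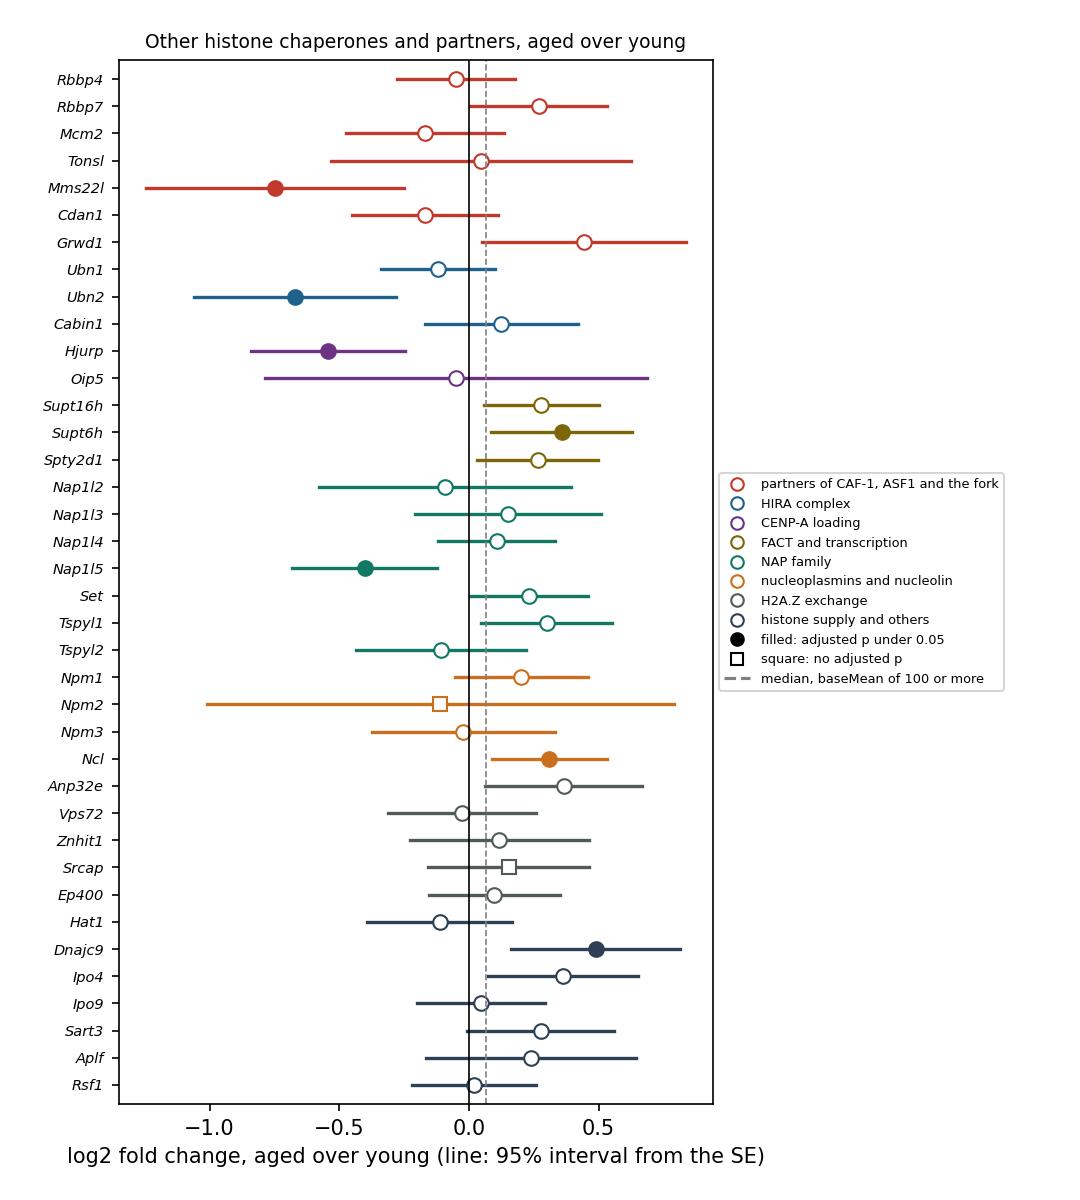
Log2FC (aged over young, n = 3 per group) of the other histone chaperones and partners, with lines for the 95% interval from the SE, colours for the functional group, filled points for an adjusted p under 0.05 and squares for genes without an adjusted p. The 4 filled points below 0 are Mms22l, Ubn2, Hjurp and Nap1l5, and the 3 above 0 are Supt6h, Ncl and Dnajc9.

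Of the histone variants that these proteins carry, 0 of 5 tested differed, beside 21.2% of all genes tested, and 1, H3f3a, had an unadjusted p under 0.05. H3f3a had a log2FC of -0.29 (SE 0.14, adjusted p = 0.118, DESeq2), which passed the test after centring on abundant genes (adjusted p = 0.0470). H3f3b, at 3249 normalized counts per kb the highest of them in level, had -0.13 (SE 0.13) and no p-value in the table. The H2A variant genes H2afz, H2afv and H2afx lay between 0.01 and 0.02, values that turn to between -0.06 and -0.05 with the same centring.

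Genes of DNA replication and division were counted beside the replication-coupled class. Of 30 tested, 3 (10%) were lower in aged mice, close to the 9.92% of all genes tested, and 0 were higher, beside 11.3%. Their median log2FC was -0.26, with 20 below 0. The medians of genes of like abundance to each ran from -0.35 to 0.09. Those that differed were Uhrf1, which maintains DNA methylation behind the fork, at -0.88 (adjusted p = 0.00169, DESeq2), Ccne2, cyclin E2, at -0.69 (adjusted p = 0.0244) and Top2a, topoisomerase II alpha, at -0.56 (adjusted p = 0.0187). The proliferation marker Mki67 stood at -0.42 (SE 0.20, adjusted p = 0.110), and Pcna, the sliding clamp that recruits CAF-1, at 0.27 (SE 0.14, adjusted p = 0.148).

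RNA of cell type markers differed with age as well. All 51 listed markers of 9 cell types had a baseMean above 0. Summed macrophage markers stood at 9872 normalized counts in young and 21446 in aged mice, with 5 of 7 higher and Cd163 lower. T and NK cell markers stood at 80.0 and 249 (5 of 6 higher), mast cell markers at 1195 and 2465 (4 of 5 higher) and fibroblast markers at 230551 and 106444. Of the 5 fibroblast markers, the collagen genes Col1a1 and Col1a2 were lower and account for the lower sum, Dcn was higher, and the median log2FC was 0.21. RPE markers stood at 277379 and 341250, with 2 of 7 tested higher. Of 5 endothelial markers 1 was lower, and among melanocyte, B cell and rod photoreceptor markers 0 differed, beside 21.2% of all genes tested. The part of these differences in the values of Nasp, Ssrp1 and the other chaperones was not tested.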

How the data were processed

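Total RNA of RPE/choroid from 3 young and 3 aged mice was depleted of ribosomal RNA and made into stranded libraries. Per the labels and the study's methods, the authors removed adapters with BBDuk, placed reads on Ensembl GRCm38 transcripts with STAR, quantified them with Sailfish, normalized by total count and tested age with DESeq2. They deposited 1 table of that comparison, with 0 columns of per-sample values. The deposited baseMean is a normalized signal, the mean over 6 libraries. The authors gave fold changes and SEs in log2 units. Their quotient is the deposited Wald score, and each p-value, raw and adjusted, is as deposited by the authors from DESeq2. The table does not state its sign, which the study's account gives as young over aged, and which was reversed, so every direction rests on it. Standard errors fell at the lowest counts (median 0.24 at a baseMean under 2 against 0.43 in tested genes under 30), as shrinkage of fold changes gives. This is not stated, and under it changes of scarce genes would be understated.

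Members, lists and classes were chosen with earlier results of these data known. No test was refitted. Group means were derived from baseMean and fold change. Levels per kb used the longest protein-coding transcript of GENCODE M21 (GRCm38), which need not be the one expressed. Named were all 10 members, listed partners past an adjusted p of 0.05 with fixed partners and paralogs (Rbbp4, Mcm2, Ubn1, Ubn2, Cabin1, Supt16h, Nap1l4, Set and Npm1), 6 carried histone genes, and genes of replication and division past the threshold with Mki67 and Pcna. Of the 40 partners, Mis18a was not found under its symbol, and Npm2 and Srcap had no adjusted p. One item is not reported here. The adjustment was tested on simulated data. Python 3.11.15, pandas 2.3.3, numpy 2.4.6 and scipy 1.17.1 were used. Alternatives were thresholds of 0.01 and 0.10, a log2 change of 1 or more in size, no filter on low genes, a baseMean of at least 100 and centring on abundant genes. Nothing in the sources says whether the mice of a group shared a litter or a batch.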

Additional observations from a re-analysis of the deposited data

How the results depend on the processing

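Nasp was the only one of the 10 members that differed. It passed the test at an adjusted p under 0.01 and under 0.10, and with no filter on low genes. It also passed at a baseMean of at least 100 and after centring on abundant genes. Where a log2 change of 1 or more was required, Nasp did not pass. That setting left 0 members, 0 partner genes and 0 genes of replication and division, beside 1542 of all 18636 genes. The counts of genes that differed were 1 member, 7 partners and 3 replication genes. At an adjusted p under 0.10 they became 2 (with Ssrp1), 13 (4 lower and 9 higher) and 5, beside 5101 of all 18636 genes. Under 0.01 they were 2 partners and 1 replication gene, beside 2520 of all genes. Centring left 4 partners, all lower, without Supt6h, Ncl and Dnajc9, brought H3f3a past the threshold and turned H2afz to -0.0589, H2afv to -0.0499 and H2afx to -0.0476. Over all genes, the genes higher in aged mice went from 2100 to 1655 and those lower from 1849 to 2289. The class medians, recomputed after centring or leaving out genes (Nasp, or all but the CAF-1 subunits; Asf1a), ran from -0.16 to -0.07 for the replication-coupled and from -0.17 to -0.04 for the replication-independent class. Weighted means were -0.31 and -0.08, so the difference between the classes went from 0.01 for medians to -0.22 for weighted means.

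Scarce members limit the contrast: for Asf1b a log2 change under 0.94 could not be called. No paired analysis was possible because libraries are not separate in the table, and neither the replicate block nor leaving out each library was run.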

Other observations

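The centromeric chaperone gene Hjurp stood apart in level from the genes it works with. Per kb of the longest coding transcript it stood at 325 normalized counts, the 73.0th percentile of genes tested, against 34.0 for Cenpa and 23.0 for Oip5. Hjurp exceeded Cenpa 11.7-fold in young and 7.53-fold in aged mice. Of its 31-base words, 98.7% occur in no other gene. These genes were singled out after their values had been seen, and the source of the Hjurp signal was not tested.

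Of other genes that handle newly made histones, Ipo4, an importin for H3-H4, had a log2FC of 0.36 (SE 0.15, adjusted p = 0.0600 from DESeq2), although 46.9% of its words are its own. Hat1, which acetylates new H4, had -0.11 (SE 0.14, adjusted p = 0.635). Both were singled out after their values had been seen.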
